A study of Mus musculus with 4 samples.

Results

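The CTCF peaks of mouse chromosome 1 were described along the chromosome in splenic plasmablasts and splenic B cells. All peaks that the authors' lists place on chromosome 1 were taken, which gave 2052 of 31086 plasmablast peaks (6.60%) and 2254 of 36381 B cell peaks (6.20%). Of all 19 autosomes, chromosome 1 was chosen because the B cell list held the lowest share of its unshared peaks, meaning peaks with no peak of the other list overlapping by at least 1 bp. That share is therefore a description and supports nothing by itself.

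Both cell types came from spleens of C57BL/6 mice aged 6 weeks. The plasmablasts were sorted by flow cytometry for surface CD138, 3 days after the mice received 50 µg of lipopolysaccharide (LPS) behind the eye. The B cells were the CD43- fraction from a magnetic bead kit, and their labels name no injection. There were 4 samples, a CTCF and an input library from each cell type, and the sources used here do not say how many animals went into a library. The plasmablast libraries were read on a HiSeq and the B cell libraries on a Genome Analyzer II, so cell type, LPS, purification and instrument cannot be told apart. Without a second CTCF library in either cell type, no spread between replicates could be measured and no test was made between them. Peak lists hold no expression values, so the labelled cell types could not be checked against marker genes.

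CTCF is a zinc finger protein that binds a long DNA motif and halts the cohesin ring as it extrudes chromatin, which places many CTCF sites at the anchors of loops and the borders of topological domains. In the B lineage it is known for shaping the loops of antigen receptor loci and for insulating genes from the enhancers of their neighbours. Mouse chromosomes are acrocentric, so position counts along chromosome 1 start at the centromere end. The chromosome carries genes well known in lymphocytes, such as Ptprc, which encodes the CD45 phosphatase, Bcl2, an inhibitor of apoptosis, and Cxcr4, a chemokine receptor that guides plasma cells to the bone marrow. Their places relative to the peaks were not determined, since the gene table at hand is on another genome build than the mm9 peak positions.

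Most CTCF peaks of chromosome 1 were listed in both cell types. Of the plasmablast peaks, 1527 of 2052 were shared (74.4%, exact 95% binomial interval 72.5 to 76.3%), and of the B cell peaks 1527 of 2254 (67.7%, 65.8 to 69.7%). That left 525 plasmablast only peaks, 25.6% of the list on this chromosome, where 20.5% of all plasmablast peaks were unshared. It also left 727 B cell only peaks, 32.3% of the list on this chromosome, where 32.1% of all B cell peaks were unshared. Plasmablast only peaks thus made up 41.9% of the 1252 unshared peaks, against 35.3% genome-wide, and B cell only peaks the remaining 58.1% (55.3 to 60.8%). The majority rests on the list lengths. With the B cell list cut to its highest scoring peaks, as many as in the plasmablast list, B cell only peaks were 42.1% of the unshared ones. Lists of equal length hold as many unshared peaks of either kind over the whole genome, since no peak had more than 1 partner. On a chromosome chosen for a low share, a plasmablast only majority was thus largely fixed in advance. The other autosomes then ran from 43.2% to 57.9%. The intervals here and below cover counting error only, and how deeply each library was read is unknown. A shared site had its midpoints a median of 17 bp apart in the lists, and 86.9% of the pairs lay within 50 bp.

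Measured per length, chromosome 1 was poor in B cell only peaks and in shared sites, and was not the richest in plasmablast only peaks. It had 2.72 plasmablast only peaks per Mb, the 5th highest of 19 autosomes, against a median of 2.40 over the 18 others. It had 3.77 B cell only peaks per Mb, the 17th highest, against a median of 4.84. Shared sites were also sparse, with 7.92 per Mb against a median of 10.2. As a part of each list, the shared share of plasmablast peaks (74.4%) was the lowest of the 19 autosomes, next to 75.2% on chromosome 3. The shared share of B cell peaks (67.7%) was the 9th highest. These shares use the same overlaps that chose the chromosome and are descriptions. In absolute number no other autosome had as many plasmablast only peaks, chromosome 2 coming next with 460, but chromosome 1 also had the longest stretch covered by peaks (193 Mb). The autosomes just outside the choice were chromosome 3, where 58.8% of the unshared peaks were B cell only (55.4 to 62.1%), and chromosome 6, with 59.2% (56.2 to 62.3%). Their intervals include the value of chromosome 1, and the highest share was 71.8% on chromosome 19.

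**Figure D1:**
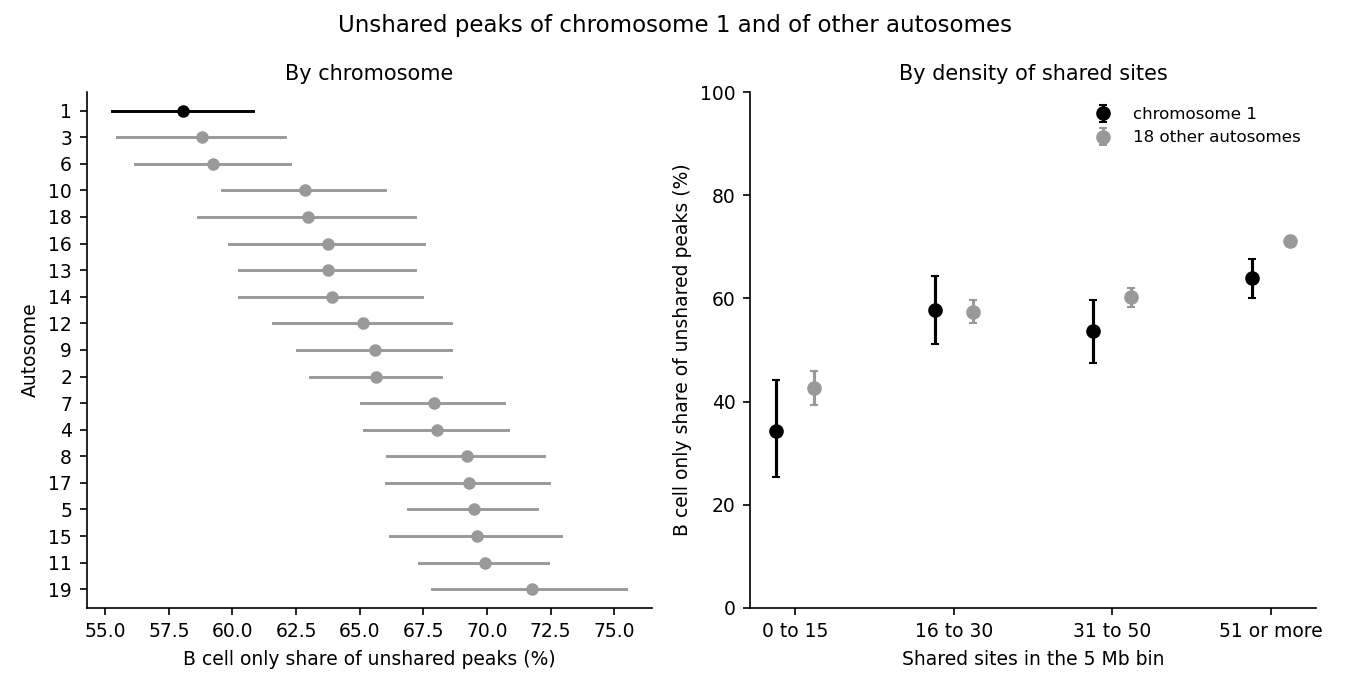
The left panel gives, for each of the 19 autosomes, the percentage of unshared CTCF peaks that were B cell only (point) with its exact 95% binomial interval (line), chromosome 1 in black at the top with 58.1%. The right panel gives the same percentage, with the same kind of interval, over 5 Mb bins grouped by how many shared sites they hold. Chromosome 1 is black and the 18 other autosomes together are grey. Chromosome 1 lies lower in the groups of 0 to 15 (34.3% against 42.6%), 31 to 50 (53.7% against 60.2%) and 51 or more sites (63.9% against 71.1%). In the group of 16 to 30 sites it has 57.8% against 57.4%.

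The profile of CTCF peaks along chromosome 1 was uneven and nearly the same in both lists. Of 40 bins of 5 Mb, 39 held a peak, with a median of 45.5 plasmablast and 47 B cell peaks per bin. Bin 40 is shorter, from 195000001 to the last peak end at 197067947, and counts here and below are not scaled for that. The richest was bin 28 (135000001 to 140000000) in plasmablasts, with 126 peaks against 149 in B cells. In B cells it was bin 37 (180000001 to 185000000), with 123 plasmablast and 154 B cell peaks. Bin 27 (130000001 to 135000000) followed in both lists, with 111 plasmablast and 127 B cell peaks. The 8 richest bins held 41.1% of the plasmablast and 44.2% of the B cell peaks of the chromosome. Over the 40 bins the counts of the 2 lists had a Spearman rank correlation of 0.99, which is a description over bins that share 2 libraries.

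**Figure D2:**
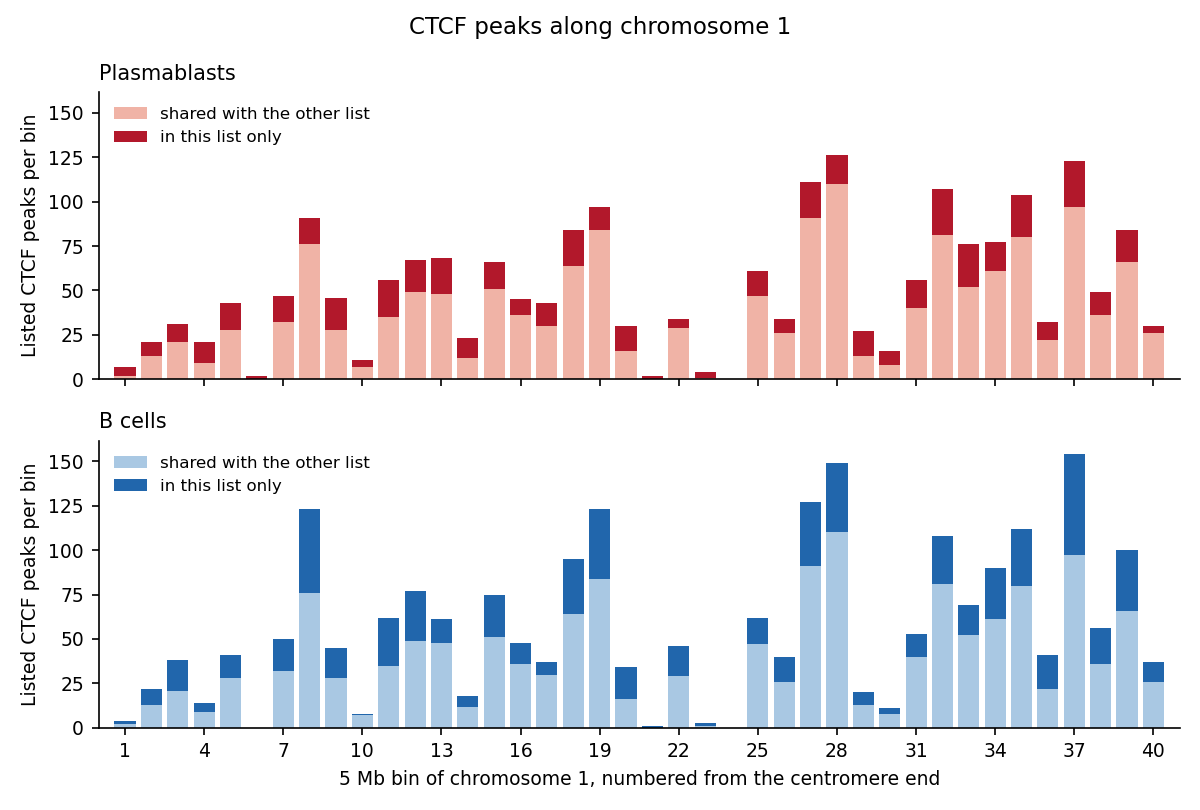
Each bar is a 5 Mb bin of chromosome 1, numbered from the centromere end, and its height is the number of listed CTCF peaks in plasmablasts (top) and B cells (bottom), split into peaks shared with the other list (light) and peaks in that list only (dark). Bins 28 and 37 stand highest in both panels, with 126 and 123 plasmablast peaks and 149 and 154 B cell peaks, and bin 24 is empty in both.

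Some long intervals of chromosome 1 held no CTCF peak in either list. The longest ran from 114352949 to 120171781 (5.82 Mb) and left bin 24 empty. The next ran from 25674076 to 30641790 (4.97 Mb), so bin 6 held 2 plasmablast peaks and no B cell peak. Another ran from 102128874 to 106882904 (4.75 Mb), and bin 21 held 2 plasmablast peaks and 1 B cell peak, none of them shared. In all, 25 gaps of at least 1 Mb covered 56.3 Mb, whereas neighbouring shared sites lay a median of 37.1 kb apart (quartiles 13.4 and 91.3 kb).

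How much of each list was shared changed from bin to bin. Of the 40 bins, 31 had at least 20 peaks in both lists and are compared here. The shared share of plasmablast peaks had a median of 75.7% over these bins. Among these bins its extremes were neighbours on the chromosome: in bin 28, 110 of 126 plasmablast peaks were shared (87.3%, 80.2 to 92.6%), and in bin 29 (140000001 to 145000000) 13 of 27 (48.1%, 28.7 to 68.0%). Bin 40 (86.7%) and bin 19 (86.6%) came next to the top, and bin 20 (53.3%) and bin 9 (60.9%) next to the bottom. Bin 4, left out for its 14 B cell peaks, was lower, with 42.9% of 21 plasmablast peaks shared.

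The shared share of B cell peaks had a median of 67.4% over the same 31 bins and placed other bins at its ends. It was highest in bins 17 (81.1%), 13 (78.7%) and 25 (75.8%) and lowest in bins 20 (47.1%), 36 (53.7%) and 3 (55.3%). In 24 of the 31 bins the plasmablast share was above the B cell share, as it was for the whole chromosome. With lists of equal length the order on the whole chromosome was the opposite, with 71.5% of plasmablast and 77.5% of B cell peaks shared. Such lists have the same shared share over the whole genome, so that order largely follows from the choice of the chromosome. In the lists as they stand, bin 29 was among the bins where the B cell share was higher, at 48.1% of 27 plasmablast peaks and 65.0% of 20 B cell peaks.

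Plasmablast only peaks outnumbered B cell only peaks in 15 of the 39 bins with a peak (38.5%), against 23.6% of 462 such bins on the other autosomes. The leading bins were 4 (15000001 to 20000000), 13, 29 and 33, each with an excess of 7. Bin 4 held 12 plasmablast only and 5 B cell only peaks, bin 13 held 20 and 13, bin 29 held 14 and 7, and bin 33 (160000001 to 165000000) held 24 and 17. The opposite excess was larger: bin 8 (35000001 to 40000000) held 15 plasmablast only and 47 B cell only peaks, bin 37 held 26 and 57, and bin 19 (90000001 to 95000000) held 13 and 39. The direction of the difference from other autosomes follows from the choice of the chromosome. The count of 15 also rests on the list lengths, and was 29 of 39 bins with lists of equal length. Both kinds are then even over the whole genome, so a majority of such bins largely follows from the choice of the chromosome.

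The kind of unshared peak followed the density of shared sites along the chromosome. Bins with more plasmablast only peaks held a median of 12 shared sites (0 to 52), and bins with more B cell only peaks a median of 48 (13 to 110). When the 39 bins were ranked by shared sites and split into terciles, the sparsest 13 bins held 103 plasmablast only and 90 B cell only peaks, a B cell share of 46.6% (39.4 to 53.9%). The middle 13 held 171 and 197 (53.5%, 48.3 to 58.7%), and the densest 13 held 251 and 440 (63.7%, 60.0 to 67.3%). The shorter bin 40, with a B cell share of 73.3%, was placed in the middle tercile by its 26 shared sites, unscaled. The densest bins exceeded the sparsest by 17.0 percentage points. Over the alternatives this difference ran from 12.5, with lists of equal length, to 29.6, with the bins shifted by 2.5 Mb. The shared share was lower in the sparsest bins in both lists, which ranking by shared sites partly fixes. In the plasmablast list 54.6% of the peaks were shared in the sparsest bins (47.9 to 61.2%), 72.1% in the middle and 79.3% in the densest (76.9 to 81.6%). In the B cell list the corresponding shares were 57.9% (51.02 to 64.6%), 69.1% and 68.6% (66.1 to 71.0%).

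In groups of bins by shared sites, chromosome 1 had a lower B cell share of unshared peaks than the other autosomes together, except with 16 to 30 sites. In bins with 51 or more shared sites, 63.9% of the 645 unshared peaks of chromosome 1 were B cell only (60.0 to 67.6%), against 71.1% of 10778 on the other autosomes together (70.3 to 72.0%). Those bins reached 110 shared sites on chromosome 1 and 194 on other autosomes, so density was not matched in this group. Each of the 18 other autosomes had a higher share in such bins, from 65.2% to 77.6%. In bins with 31 to 50 shared sites the share was 53.7% on chromosome 1 (47.6 to 59.7%) and 60.2% on the others (58.3 to 62.1%), and 2 of the 18 lay below chromosome 1. In bins with 16 to 30 sites it was 57.8% against 57.4%, and in bins with 0 to 15 sites it was 34.3% (25.3 to 44.2%) against 42.6% (39.4 to 45.9%). Of the 15 other autosomes with at least 30 unshared peaks in these sparsest bins, 4 lay below chromosome 1. The other autosomes as a whole had 66.1%, or 63.8% when their density groups were weighted as on chromosome 1. Chromosomes are not replicates, and since chromosome 1 was picked for its low share no test was made.

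Stretches rich in plasmablast only peaks were located by walking along the 1252 unshared peaks, counting +1 for a plasmablast only and -1 for a B cell only peak, and taking the intervals with the highest sums. The top 3 covered 56.0 Mb (29.1% of the span of peaks) and held 169 plasmablast only and 108 B cell only peaks, or 32.2% and 14.9% of those of the chromosome. Outside them the B cell share of the unshared peaks was 63.5%. The stretches were chosen by these counts, so the counts are descriptions. They also rest on the list lengths: with lists of equal length, where plasmablast only peaks are the majority, the top stretch ran from 4322674 to 181150708, with 526 plasmablast only and 350 B cell only peaks, an alternative chosen after seeing the data.

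The stretch with the largest sum ran from 139797557 to 165840774 (26.0 Mb), with 94 plasmablast only, 68 B cell only and 198 shared sites. It had 7.60 shared sites per Mb, against 7.92 on the whole chromosome, but unevenly: bins 29 and 30 held 13 and 8 shared sites, bin 31 held 40, bin 32 held 81 and bin 33 held 52. Plasmablast only peaks were denser there than on chromosome 1 at large (3.61 against 2.72 per Mb) and B cell only peaks thinner (2.61 against 3.77 per Mb). Its plasmablast only peaks had scores from 3.0 to 76.0, and 35 of the 94 (37.2%) lay above the median of the whole plasmablast list. By bin, the excess of plasmablast only peaks was 7 in bin 29, 5 in bin 30, 3 in bin 31 and 7 in bin 33, while bin 32 (155000001 to 160000000) was nearly even, with 26 plasmablast only and 27 B cell only peaks.

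The second stretch ran from 14852564 to 33079997 (18.2 Mb) and was sparse, with 38 plasmablast only, 20 B cell only and 43 shared sites, or 2.36 shared sites per Mb. It includes 7 plasmablast peaks in a row with neither a shared site nor a B cell peak between them, from 17153725 to 20504081, the longest such row of plasmablast only peaks on the chromosome. The third ran from 60622186 to 72360505 (11.7 Mb), with 37 plasmablast only, 20 B cell only and 62 shared sites (5.28 per Mb). The plasmablast only peaks above the median of their list were 14 of 38 in the second stretch (36.8%) and 8 of 37 in the third (21.6%), against 27.0% on the whole chromosome.

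**Figure D3:**
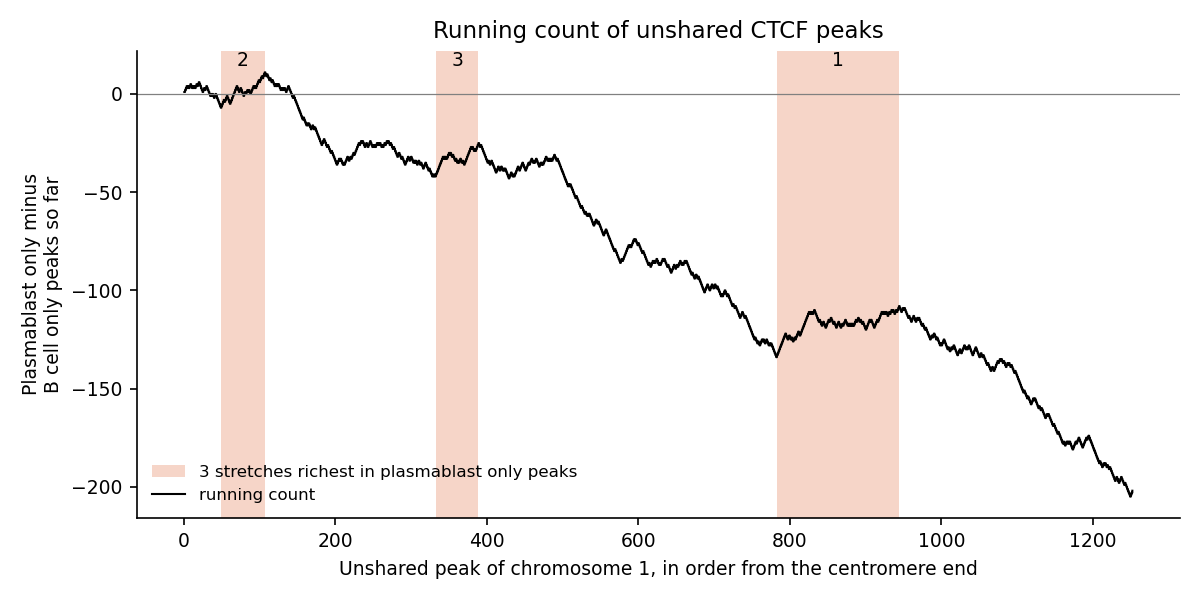
The line is the running number of plasmablast only minus B cell only peaks over the 1252 unshared CTCF peaks of chromosome 1, in order from the centromere end, and it climbs where plasmablast only peaks prevail. Shading marks the 3 stretches with the largest climbs, numbered by rank, with sums of 26, 18 and 17, and the line falls most of the way elsewhere.

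At the finer scale of 1 Mb, 51 windows held at least 10 unshared peaks, and in 11 of them (21.6%) plasmablast only peaks were the majority, against 7.06% of 722 such windows on the other autosomes, a direction that the choice of the chromosome fixes. The most one-sided were the windows from 80000001 to 81000000 and from 152000001 to 153000000, each with 8 plasmablast only and 2 B cell only peaks. Of the 11 windows, 5 lie wholly in the 26.0 Mb stretch. The longest run of plasmablast only peaks without a B cell only one had 12 members and was found at 2 places, from 139797557 to 140732212, among 12 shared sites, and from 146200586 to 152767693, among 7. The longest B cell only runs had 14 members, also at 2 places, from 89528230 to 89803491 and from 191588171 to 193030019.

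Scores, which are the authors' own values in a unit the sources do not state, were compared as percentiles within each whole list. Chromosome 1 was ordinary in overall strength, with medians at percentile 50.5 in plasmablasts and 48.2 in B cells. Unshared peaks were weak in both lists, as the medians show: 29.2 for plasmablast only and 18.4 for B cell only peaks, against 58.7 and 64.1 for shared peaks. Above the median score of the own list stood 142 plasmablast only peaks (27.0%) and 58 B cell only peaks (7.98%). Over the 18 other autosomes the medians of these shares were 24.9% and 9.33%, and chromosome 1 ranked 6th and 17th highest of 19. Among these stronger unshared peaks the B cell share was 29.0%, below each of the 18 other autosomes (30.0% to 55.8%), though chromosome 3, with 30.0%, was close. This share uses part of the peaks that chose the chromosome, so its low rank is a description. With both lists first cut at their median score and overlaps redone, the share was 54.8%, and 1 other autosome lay lower (53.5%).

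Sharing of plasmablast peaks was lower on chromosome 1 at each level of strength. In the weakest quintile of the list by score 53.5% of the chromosome 1 peaks were shared (48.6 to 58.3%), against 60.9% on the other autosomes together (59.6 to 62.2%). In the middle quintile it was 78.0% (73.6 to 82.0%) against 83.7%, and in the strongest quintile 91.7% (88.7 to 94.1%) against 95.2%. The number of other autosomes with a still lower share was 2, 0, 0, 2 and 1, going up through the quintiles. B cell peaks showed no such deficit: their shares on chromosome 1 were 21.7%, 49.8%, 79.3%, 95.7% and 99.5% going up, against 20.2%, 48.1%, 75.9%, 94.3% and 99.5%. These quintiles use the same overlaps that chose the chromosome and are descriptions.

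Along the chromosome, the strength of shared sites varied in both lists. Over the 31 bins the median plasmablast percentile of shared sites ran from 34.7 in bin 29 to 71.0 in bin 34 (165000001 to 170000000), with bins 27 (69.8) and 18 (67.4) next to the top. The B cell percentile ran from 46.6 in bin 13 to 77.4 in bin 40, with bins 8 (73.4) and 19 (72.8) next. Among the 31 bins, bin 29 thus combined the lowest shared share of plasmablast peaks with the lowest plasmablast rank of the sites that were shared, on 13 sites. Bin 4, left out for its 14 B cell peaks, was lower on both measures, at 42.9% and percentile 33.7. Denser bins held higher ranking shared sites, with Spearman correlations over the 31 bins of 0.42 in plasmablasts and 0.57 in B cells, given as descriptions.

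For unshared peaks, the plasmablast median percentile was above the B cell one in 27 of the 31 bins. It peaked in bin 22 (105000001 to 110000000) at 74.0, on only 5 plasmablast only peaks, and in bin 31 (150000001 to 155000000) at 51.5, on 16. B cell only peaks stayed between 8.55 (bin 2) and 29.3 (bin 39) in every one of the 31 bins. Percentiles of lists of unlike length and threshold are not on a common scale. The 27 bins therefore compare ranks taken within each list and not peak strength between the cell types.

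**Figure D4:**
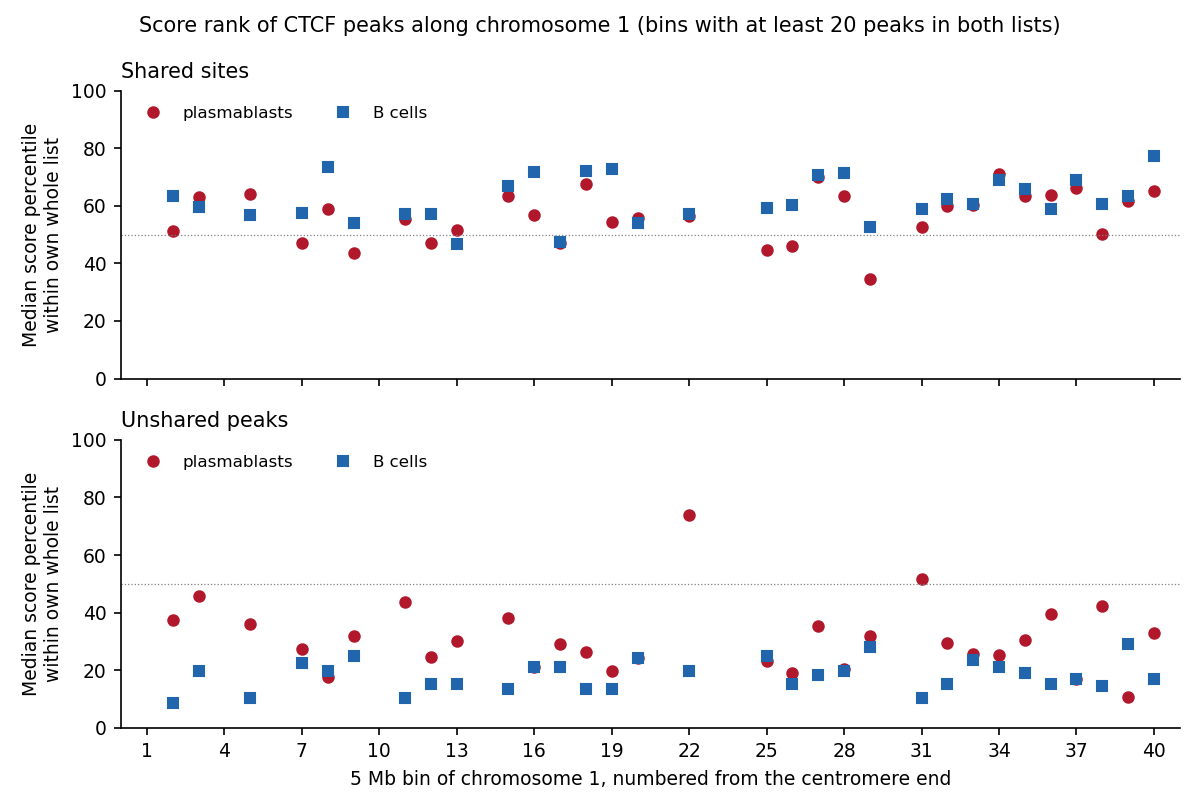
Points give the median score percentile, within the whole own list, of shared sites (top) and unshared peaks (bottom) in each 5 Mb bin of chromosome 1 with at least 20 peaks in both lists, for plasmablasts (red circles) and B cells (blue squares). Shared sites lie between 34.7 and 77.4, and the medians of B cell only peaks never exceed 29.3, while that of plasmablast only peaks reaches 74.0 in bin 22.

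At the 1527 shared sites the plasmablast percentile minus the B cell percentile had a median of -5.45 points (quartiles -19.7 and 7.27), against -7.44 on the other autosomes. When sites were ranked among shared sites alone, the median on chromosome 1 was 1.28, so the sign rests on the unshared peaks in the lists. At 122 sites (7.99%) the plasmablast percentile was at least 25 points higher, against 5.76% of all 24702 shared sites of the genome. At 282 sites (18.5%) it was at least 25 points lower, against 20.1%. Sites at least 25 points higher in plasmablasts made up 15.3% of the shared sites in the sparsest tercile of bins (9.48 to 22.9%) and 6.86% in the densest (5.35 to 8.65%). Sites at least 25 points lower made up 21.0% and 18.1%. The median difference by bin had a Spearman correlation of -0.0061 with the number of shared sites over the 31 bins, given as a description, and ran from -15.6 in bin 7 (30000001 to 35000000) to 3.88 in bin 13.

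The strongest sites of chromosome 1 were common to both cell types. The top site lay at 183819026 to 183819204 in plasmablasts (score 200.6, percentile 99.99) and at 183818963 to 183819267 in B cells (403.8, 99.94), with coinciding midpoints. It lies in bin 37. The next was at 88075516 to 88075694 in plasmablasts (104.7) and 88075455 to 88075759 in B cells (380.7), in bin 18. The sites whose plasmablast peaks start at 137649644 (106.5 in plasmablasts, 356.6 in B cells), 75556189 (100.2 and 359.4) and 193399777 (96.8 and 340.8) followed. All 5 ranked at or above percentile 99.58 in both lists.

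A few shared sites were strong in 1 list and weak in the other. The largest difference in favour of plasmablasts was at 97658922 to 97659100, in bin 20, with percentile 96.7 in plasmablasts and 11.98 in B cells. The sites starting at 136751000 (93.0 in plasmablasts and 11.98 in B cells) and 45823120 (81.7 and 2.59) came next. The largest opposite difference was at 34542818 to 34542996, in bin 7, at percentile 7.70 in plasmablasts and 98.1 in B cells. The sites starting at 137327074 (0.151 and 76.6) and 158978602 (4.70 and 78.0) followed. These sites are the extremes of 1527 and have no replicate.

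Few unshared peaks ranked high in their own list. In the top decile lay 14 of the plasmablast only peaks (2.67%), against 1.55% of those of the whole list, and 1 of the B cell only peaks (0.138%), against 0.103%. The highest plasmablast only peak was at 141164523 to 141164701, in bin 29, with a score of 76.0 (percentile 97.9) and the nearest B cell midpoint 96380 bp away. It was followed by peaks starting at 88312927 (75.8, nearest B cell midpoint at 368 bp), 4760054 (73.0, 297 bp), 174339249 (67.6, 1781 bp) and 155589645 (67.3, 4307 bp). Another in bin 29, starting at 141053067 (65.9), ranks 7th, and was named after its values were seen. The peaks starting at 141164523, 141053067 and 155589645 lie in the 26.0 Mb stretch.

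The only B cell only peak in the top decile was at 159009507 to 159009811 (score 227.8, percentile 91.9), with a plasmablast midpoint 2255 bp away. The next began at 38054673 (186.2, 12003 bp), 88312496 (152.8, 368 bp), 99666881 (147.3, 355 bp) and 193638116 (137.1, 3640 bp). The plasmablast peak at 88312927 and the B cell peak at 88312496 are each other's neighbour, so both lists hold a strong peak there without overlap. In all, 28 plasmablast only peaks (5.33%) and 26 B cell only peaks (3.58%) lay within 500 bp of a midpoint of the other list. How many of these formed such pairs was not counted.

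On chromosome 1, plasmablast only peaks were more often remote than B cell only peaks. The nearest B cell midpoint lay more than 50 kb away for 116 of the 525 plasmablast only peaks (22.1%), and the nearest plasmablast midpoint for 101 of the 727 B cell only peaks (13.9%). The medians were alike, 14.8 kb for plasmablast only and 14.1 kb for B cell only peaks, while the upper quartiles were 42.6 and 30.4 kb. The most remote plasmablast only peak, at 148533027 to 148533205, borders a gap and lay 2279164 bp from a B cell midpoint, with a weak score of 5.0. Remoteness also depends on how many peaks the other list holds, and the B cell list is the longer one. These shares were not taken for other autosomes, so whether they are particular to chromosome 1 is unknown.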

How the data were processed

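The submitters' processing notes name Bowtie, HOMER and the mm9 build; their versions, the calling thresholds and the role of the inputs are not stated there. The authors' deposited files hold 1 peak list per CTCF library, with a score per peak in an unstated unit and no pooling named. Input libraries were not analysed here.

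Starts were raised by 1 (1-based, mm9). Peaks were shared at 1 bp overlap, checked with bedtools 2.31.1 (1527 on chromosome 1 from either list), and binned by midpoint. Percentiles are average ranks within the whole list. Shares have exact Clopper-Pearson 95% intervals. Stretches are maximal scoring segments. Overlap and segment steps were tested on simulated data. Members, lists and the minimum of 20 peaks per bin were chosen with earlier results of these data known. Named regions are the highest and lowest bins, 3 top stretches, and top shared, shifted and unshared peaks. Alternatives changed the overlap rule, list length, bins and weights. No mm9 genome or annotation was used, so genes and sequences at peaks are not given. Python 3.11.15, numpy 2.4.6, pandas 2.3.3, scipy 1.17.1 and matplotlib 3.10.9 were used.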

Additional observations from a re-analysis of the deposited data

How the results depend on the processing

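Of 37 alternatives, 23 left a value within its counting interval or, for a count, within 1.5 times, 13 moved it and 1 turned its sign. With 50% reciprocal overlap the shared share was 72.0% in plasmablasts and 65.6% in B cells. With peaks above the median score of each list, it was 69.9% in B cells, and the B cell share of unshared peaks was 54.8%. With lists of equal length, the shared share was 71.5% in plasmablasts and 77.5% in B cells. The B cell share of unshared peaks was then 42.1%, and plasmablast only peaks led in 29 bins. Both kinds are even over the whole genome in that setting, so these directions largely follow from the choice of the chromosome. In these settings chromosome 1 kept the lowest B cell share of the autosomes, except above the median scores, where 1 other lay lower (53.5%). The next autosome was close, with 58.1% against 57.5% under reciprocal overlap and 43.2% against 42.1% with lists of equal length. This rank is what chose the chromosome, so keeping it supports nothing by itself. Bins of 2 Mb gave 40 of 90 with more plasmablast only peaks, bins of 10 Mb 7 of 20, against 15 of 39 bins of 5 Mb. Both are among the 13 moved values because raw counts were compared over unlike numbers of bins. The gap between densest and sparsest bins was 26.7 points with 2 Mb bins and 29.6 with shifted bins. It was 12.5 with lists of equal length and 14.6 with 10 Mb bins. The median percentile difference was 1.28 among shared sites alone. The top stretch was the same 26.0 Mb interval, with a sum of 26, under 50% reciprocal overlap and midpoints within 500 bp. Above the median scores it ran from 138355578 to 166272588 (sum 24). With log likelihood weights it ran from 139797557 to 166675356 (97 plasmablast only and 72 B cell only peaks, an unweighted excess of 25). With lists of equal length, added after seeing the data, it took in most of the chromosome (sum 176), since steps of +1 are then the majority. No paired analysis was possible because each cell type has 1 library, which also left no replicate to drop. Since read depth is unknown, an unlisted site may still be bound.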

Other observations

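Close groups of CTCF peaks were alike in the lists on chromosome 1. With gaps of at most 2 kb, plasmablasts had 115 groups of at least 2 peaks and B cells 125, holding 11.5% and 11.3% of the peaks. None had 4 peaks, and groups of 3 numbered 6 in plasmablasts and 4 in B cells. One group of 3 was fully shared, from 173431716 to 173433688 in plasmablasts (scores 17.6 to 41.1) and from 173431686 to 173433725 in B cells (79.7 to 209.3). The strongest group of 3 in plasmablasts lay at 174339249 to 174342646 (63.7 to 79.4), with 2 of its peaks shared. In B cells it lay at 159006450 to 159009811 (213.9 to 289.0), also with 2 shared, and the remaining peak is the only B cell only peak in the top decile. The longest row of shared sites with no unshared peak between them had 18 members, from 82429995 to 84694174.

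The numbers in the peak names follow the score within a chromosome and have gaps at the weak end. On chromosome 1 the highest number was 3708 in plasmablasts, of which 2052 are listed, and 3543 in B cells, of which 2254 are listed. In the first quartile of the numbers, which holds the strongest peaks, 99.9% were listed in plasmablasts and 99.8% in B cells. In the third quartile it was 25.5% in plasmablasts and 56.2% in B cells, and in the last 0.647% and 8.47%. What removed the other numbers was not tested.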
